A study of Mus musculus with 8 samples.

Results

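The extracellular matrix of the heart is cut, protected and crosslinked by a small set of secreted or membrane-bound proteins, and the mRNAs of 10 of them were followed here in mouse hearts. The set holds 3 matrix metalloproteinases (Mmp2, Mmp3 and Mmp14), 4 tissue inhibitors of metalloproteinases (Timp1, Timp2, Timp3 and Timp4) and 3 lysyl oxidases (Lox, Loxl1 and Loxl2). The genes were chosen by name and role, with earlier results of these data known, from the 25929 genes of the deposited table and matched to symbols by Ensembl identifier. All 10 were found, and all 10 passed the filter for testing (1 FPKM or more in at least 2 libraries), which left 14442 genes.

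Metalloproteinases are made as inactive precursors and cut collagens, fibronectin and other matrix proteins once the propeptide is removed. TIMPs bind the active site of these enzymes, and Timp2 has an added role, since it docks pro-Mmp2 to the membrane enzyme Mmp14, which cuts the precursor. Lysyl oxidases act on the same matrix from the opposite side, oxidising lysines of collagen and elastin so that the fibres become crosslinked and harder to degrade. In the heart most of these genes are chiefly products of fibroblasts, whereas Timp4 is known for its expression in heart muscle itself.

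Hearts of wild-type (WT) mice and of littermates carrying fat-1, a C. elegans transgene for a fatty acid desaturase that makes n-3 from n-6 fatty acids, were compared after transverse aortic constriction (TAC), which narrows the aorta and loads the left ventricle with pressure, or after a sham operation that opened the chest without constriction. The mice were 3 months old at surgery, and the WT mice (WT-Sham, WT-TAC), for which the labels give the strain C57BL/6, and the fat-1 mice (Fat1-Sham, Fat1-TAC), for which they give Fat-1, formed 4 groups of 2 independent samples, named here by group and replicate number. The labels give ventricular tissue as the source, whereas the methods name whole hearts. All values are FPKM (fragments divided by the length of the transcript and by the depth of the library). Levels are scaled to 1 length per gene, and comparisons between genes rest on it. The length recovered from the values was 2279 bases for Timp3, 3221 for Timp4 and 2214 for Timp2. Their annotated exon bases were 8144, 5894 and 3896, so orders of genes, class sums and ratios between genes hold for the deposited lengths only.

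Depth, recovered from the values as whole fragments, lay between 14163994 and 21218331 per library, so that every one of the 10 genes rested on at least 28 fragments in every library, well above the floor of 3 fragments taken as detection. Cardiomyocyte markers were high in all libraries, with a summed level of 22864 FPKM in WT-TAC1 and 41770 to 55597 FPKM elsewhere. The WT-TAC libraries stood apart: 8 airway and epithelial markers summed to 1560 FPKM in WT-TAC1 and 3576 FPKM in WT-TAC2, against 2.09 to 47.6 FPKM in the other 6, and 5 thymocyte markers summed to 1077 FPKM in WT-TAC1 against 0.242 to 1.24 FPKM elsewhere. The airway gene Scgb1a1 was at 707 and 1555 FPKM in WT-TAC and at 0 to 33.1 FPKM in the other libraries. WT-TAC1 had a median FPKM over all genes of 2.606 and WT-TAC2 of 1.576, whereas the others had 0.823 to 1.164, so that a typical gene was higher in WT-TAC before any gene is considered. The part of these other cell types in the results below was not tested, and every comparison with WT-TAC carries them.

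The promoters of 6 of the 10 genes were found in RefSeq (GRCm38.p6): Mmp3, Mmp14, Timp1, Timp2, Timp3 and Timp4. Of these, Mmp3 and Timp1 had the widest ranges over the libraries, and the range of Timp4 was narrower. For Mmp14, as for Lox, the TAC libraries lay wholly above sham in WT hearts and wholly below in fat-1 hearts, beside 7.93% of all genes. The 120 bases before the start site of Mmp3, Timp1, Mmp14 and Timp4 are shown, 5′ to 3′ on the strand of the gene. Capitals mark matches to 3 motifs, each searched on both strands in the 250 bases before the start. The motif of AP-1, a factor of stress and growth signals, was spelled TGANTCA. The box at which the basal transcription machinery is placed was spelled TATAAA. The box bound by SP1 and KLF factors was spelled GGGCGG.
Mmp3, chr9:7445702-7445821, + strand: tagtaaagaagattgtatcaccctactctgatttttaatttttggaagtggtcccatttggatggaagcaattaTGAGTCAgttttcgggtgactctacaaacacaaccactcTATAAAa
Timp1, chrX:20870046-20870165, + strand: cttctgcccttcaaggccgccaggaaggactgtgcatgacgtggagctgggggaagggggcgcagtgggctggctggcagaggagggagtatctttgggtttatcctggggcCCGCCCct
Mmp14, chr14:54431478-54431597, + strand: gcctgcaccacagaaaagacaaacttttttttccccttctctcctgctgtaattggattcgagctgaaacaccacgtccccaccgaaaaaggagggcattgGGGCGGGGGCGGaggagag
Timp4, chr6:115252206-115252325, − strand: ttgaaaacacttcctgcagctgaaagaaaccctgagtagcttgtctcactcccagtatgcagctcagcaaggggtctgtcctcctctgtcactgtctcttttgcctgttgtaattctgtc

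The promoter of Mmp3 was the one with both an AP-1 match, TGAGTCA at 46 to 40 bases before the start, and TATAAA, at 7 to 2 bases before it, and the other 5 promoters had neither. Over 32851 RefSeq promoters, TGANTCA was found in 6.75% and TATAAA in 12.4%. The GC box letters were found in 4 of the 6 promoters, Mmp14 (at 19 to 14 and at 13 to 8 bases before the start), Timp1 (8 to 3), Timp2 (37 to 32) and Timp3 (15 to 10), and in 32.7% of all promoters. The Timp4 promoter held none of the 3. G and C made up 37.6% of the 250 bases of Mmp3 and 53.6% to 68.0% of the other 5, beside a median of 52.4% over all promoters. These matches describe the letters only. Starts here are those of RefSeq, and the gene coordinates given below, from GENCODE, can differ. The 250 bases of Timp2 (chr11:118355412-118355661) lie inside its GENCODE gene. Those of Timp3 end at 86300411, past its GENCODE start at 86300372, so that its GC box lies inside that gene.

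The genes differed widely in level. Ordered by the mean over the 8 libraries, Timp2 (81.7 FPKM) and Timp3 (80.9 FPKM) stood first, followed by Mmp2 (48.3), Loxl1 (16.7), Mmp14 (15.9), Timp4 (12.5), Timp1 (3.91), Mmp3 (3.50), Loxl2 (3.06) and Lox (2.07). Timp2 and Timp3 could not be ordered, since Timp2 was the higher in 4 of 8 libraries, and Loxl1 exceeded Mmp14 in 7 of 8 and Mmp14 exceeded Timp4 in 5 of 8. Timp3 exceeded Mmp2, Mmp2 exceeded Loxl1 and Timp4 exceeded Timp1 in all 8 libraries. Timp1 against Mmp3 (6 of 8), Mmp3 against Loxl2 (3 of 8) and Loxl2 against Lox (6 of 8) changed places between libraries.

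**Figure D1:**
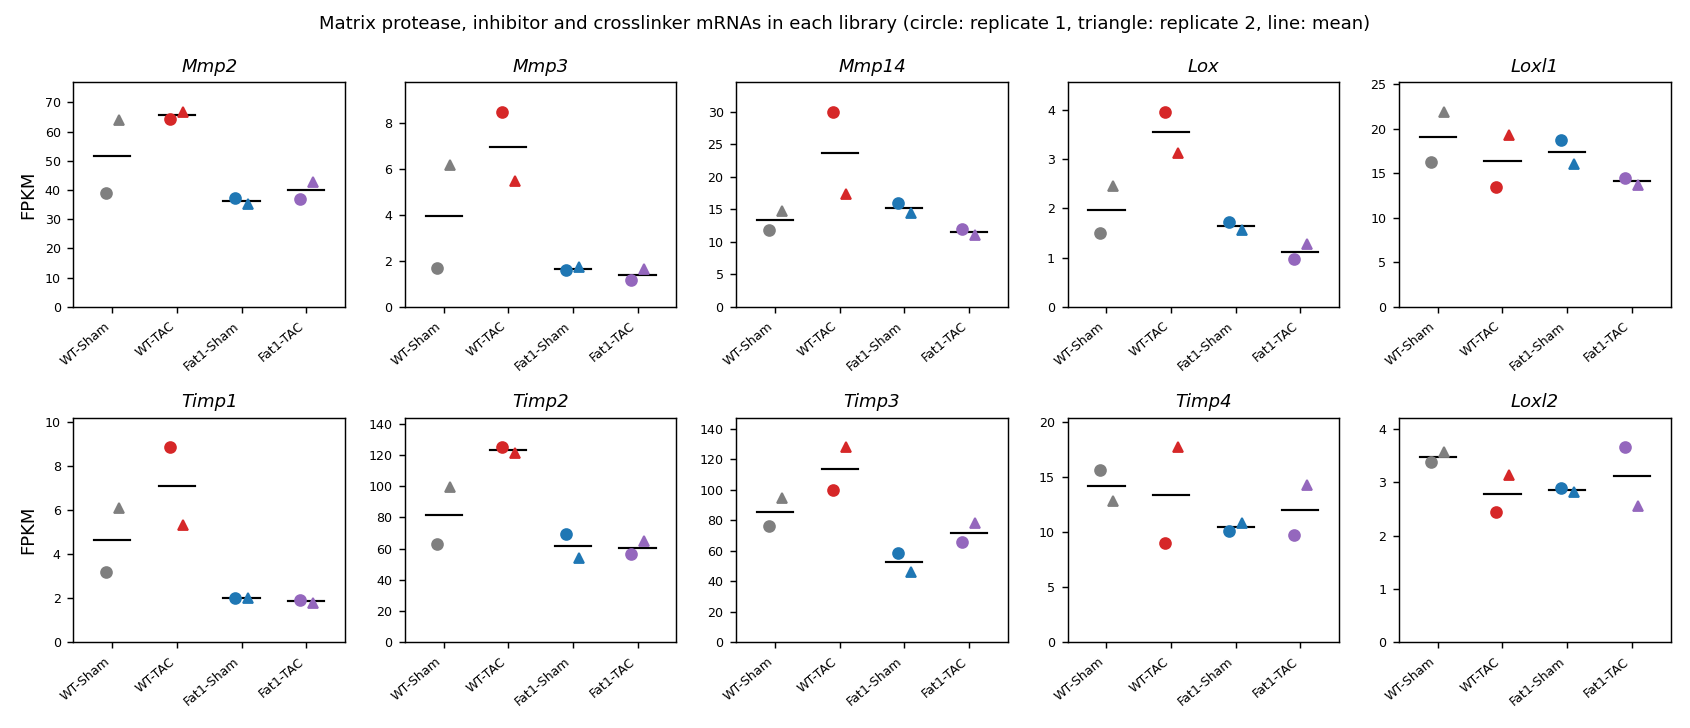
FPKM of each of the 10 genes in each of the 8 libraries (vertical axes in FPKM, a scale per gene, all starting at 0), with circles for replicate 1, triangles for replicate 2 and a line at the mean of each group (n = 2). Mmp3 and Timp1 were spread widely over the WT libraries (1.69 to 8.51 and 3.21 to 8.88 FPKM) and narrowly over the fat-1 libraries (1.16 to 1.73 and 1.80 to 2.03 FPKM).

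Among the 3 metalloproteinases of the set, Mmp2 (gelatinase A, chr8:92827291-92853420, GRCm38) supplied 62.5% to 77.3% of the summed level in each library. It was at 39.1 and 63.9 FPKM in WT-Sham, 64.2 and 66.8 in WT-TAC, 37.4 and 35.2 in Fat1-Sham, and 36.8 and 42.9 in Fat1-TAC. WT-Sham2 was thus at the level of the WT-TAC libraries and WT-Sham1 at that of the fat-1 libraries. The WT-Sham replicates differed by more than the means of WT-Sham (51.5 ± 17.5, SD, n = 2) and WT-TAC (65.5 ± 1.88).

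Mmp14 (chr14:54431612-54445364), the membrane-anchored activator of Mmp2, was at 11.8 and 14.8 FPKM in WT-Sham, 30.0 and 17.3 in WT-TAC, 15.9 and 14.4 in Fat1-Sham, and 12.0 and 11.0 in Fat1-TAC. WT-TAC1 was the highest library by a wide margin, WT-TAC2 was next, and the Fat1-TAC libraries lay below both Fat1-Sham libraries. The ratio of Mmp14 to Mmp2 was 0.302 and 0.232 in WT-Sham, 0.467 and 0.259 in WT-TAC, 0.424 and 0.409 in Fat1-Sham, and 0.325 and 0.255 in Fat1-TAC.

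Mmp3 (stromelysin 1, chr9:7445822-7455975), which cuts a broad range of matrix proteins, was at 1.69 and 6.20 FPKM in WT-Sham, 8.51 and 5.47 in WT-TAC, 1.59 and 1.73 in Fat1-Sham, and 1.16 and 1.65 in Fat1-TAC. WT-Sham1 was close to the fat-1 libraries, whereas WT-Sham2 lay among the WT-TAC libraries, so the WT-Sham mean of 3.94 ± 3.19 FPKM described neither replicate. Mmp3 had the highest coefficient of variation of the 10 genes, 80.3% over the 8 libraries, at 39 to 304 fragments per library.

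Timp2 (chr11:118301069-118355740) and Timp3 (chr10:86300372-86349506), the latter held in the matrix rather than soluble, made up most of the TIMP mRNA. Timp2 was at 63.0 and 99.6 FPKM in WT-Sham, 125 and 121 in WT-TAC, 69.2 and 54.1 in Fat1-Sham, and 56.6 and 64.8 in Fat1-TAC. Timp3 was at 76.0 and 94.6 FPKM in WT-Sham, 99.8 and 128 in WT-TAC, 58.5 and 46.4 in Fat1-Sham, and 65.9 and 78.0 in Fat1-TAC. For both genes WT-TAC was the highest group and did not overlap with any other, and Timp3 was lowest in Fat1-Sham, whose libraries lay below those of the other groups.

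Timp1 (chrX:20870166-20874735), the TIMP best known for induction in inflamed and fibrotic tissue, was at 3.21 and 6.10 FPKM in WT-Sham, 8.88 and 5.32 in WT-TAC, 2.03 and 2.03 in Fat1-Sham, and 1.93 and 1.80 in Fat1-TAC. Every fat-1 library lay below every WT library. Timp1 was 1.13% to 3.66% of the TIMP sum and the least counted of the 10 genes, at 28 to 151 fragments, for which counting alone gives an SD of 18.9% at the lowest and 8.14% at the highest count.

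Timp4 (chr6:115241892-115252205) was at 15.6 and 12.8 FPKM in WT-Sham, 8.97 and 17.7 in WT-TAC, 10.1 and 10.8 in Fat1-Sham, and 9.70 and 14.3 in Fat1-TAC. Its lowest and highest libraries were the replicates of WT-TAC, and WT-TAC1 was also the library with the lowest cardiomyocyte markers. Timp1, Timp3 and Timp4 each lie inside a synapsin gene on the opposite strand (Syn1, Syn3 and Syn2), with 1733 shared exon bases for Timp3 (21.3% of its exon bases), 90 for Timp4 and 0 for Timp1. Whether strand was used in counting is not given in the sources used here, so reads of the shared bases cannot be told apart, and the synapsins were at 0.0170 to 0.514 (Syn1), 0.638 to 2.85 (Syn2) and 0.131 to 0.623 FPKM (Syn3).

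Of the 3 lysyl oxidases of the set, Loxl1 (chr9), which acts chiefly in elastic fibres, made up 67.7% to 80.2% of the sum. It was at 16.2 and 21.9 FPKM in WT-Sham, 13.4 and 19.3 in WT-TAC, 18.7 and 16.0 in Fat1-Sham, and 14.5 and 13.7 in Fat1-TAC. Loxl2 (chr14), which crosslinks basement membrane collagen, was at 3.38 and 3.56 FPKM in WT-Sham, 2.44 and 3.13 in WT-TAC, 2.89 and 2.81 in Fat1-Sham, and 3.66 and 2.56 in Fat1-TAC. Neither was highest in WT-TAC, and Loxl2 had the narrowest spread of the 10, with a coefficient of variation of 14.9%. Lox (chr18), the founding member and the main collagen crosslinker, was at 1.49 and 2.46 FPKM in WT-Sham, 3.96 and 3.13 in WT-TAC, 1.73 and 1.57 in Fat1-Sham, and 0.968 and 1.28 in Fat1-TAC, so that WT-TAC was highest and Fat1-TAC lowest, with no overlap of either with another group.

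Summed by class, TIMP mRNA exceeded the mRNA of the 3 metalloproteinases of the set in every library, and the ratio moved little. Other metalloproteinase genes, among them Mmp15 (mean 46.0 FPKM), were not in that sum, so the excess is over these 3 only. The metalloproteinase sum was 52.7 and 85.0 FPKM in WT-Sham, 103 and 89.6 in WT-TAC, 54.9 and 51.3 in Fat1-Sham, and 49.9 and 55.6 in Fat1-TAC. The TIMP sum was 158 and 213, 243 and 272, 140 and 113, and 134 and 159 FPKM in the same order. Both sums were highest in WT-TAC, and the mean ratio of WT-Sham was 2.75 ± 0.346, that of WT-TAC 2.70 ± 0.476, that of Fat1-Sham 2.38 ± 0.239 and that of Fat1-TAC 2.77 ± 0.121 (SD, n = 2), so that the group means differed by no more than the replicates of WT-TAC (2.36 and 3.04). The lysyl oxidase sum was 21.0 and 27.9 FPKM in WT-Sham, 19.8 and 25.6 in WT-TAC, 23.4 and 20.4 in Fat1-Sham, and 19.1 and 17.6 in Fat1-TAC, and WT-TAC was not the highest group. No class sum was tested.

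**Figure D2:**
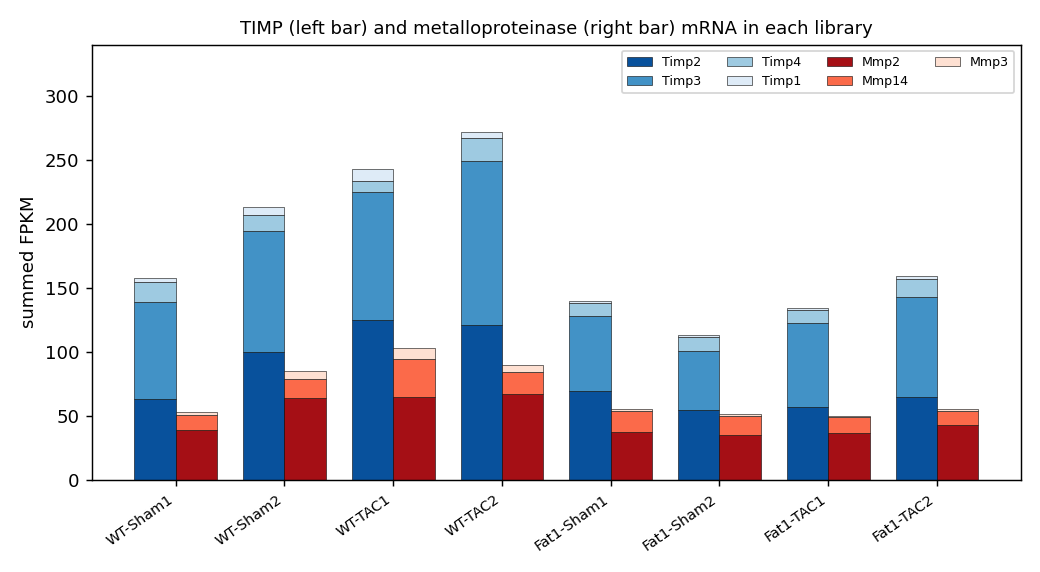
Summed FPKM of the 4 TIMP genes (left bar of each pair, blue) and of the 3 metalloproteinase genes (right bar, red) in each of the 8 libraries, stacked by gene from an axis at 0. TIMP bars run from 113 to 272 FPKM and metalloproteinase bars from 49.9 to 103 FPKM, and each TIMP bar is 2.21 to 3.04 times its neighbour.

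Pressure overload in WT hearts was read from WT-TAC against WT-Sham. Levels were tested in limma on log2(FPKM + 1), over all 14442 genes and with all 8 libraries in 1 fit, and a gene was called where the p adjusted by Benjamini-Hochberg was under 0.1 and the groups differed by more than 1.5-fold. None of the 10 was called, beside 0.921% of all genes called higher and 0.0138% called lower. Without adjustment (p under 0.05, more than 1.5-fold), 3 of the 10 were higher, beside 22.7% of all genes, and 0 were lower, beside 1.11%. These were Mmp14 (log2 fold change 0.74, SE 0.27, adjusted p 0.176), Timp2 (0.63, SE 0.24, adjusted p 0.177) and Lox (0.63, SE 0.25, adjusted p 0.179).

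The differences of the other genes between WT-TAC and WT-Sham were 0.38 for Mmp2, 0.84 for Mmp3, 0.53 for Timp1, 0.41 for Timp3, −0.15 for Timp4, −0.21 for Loxl1 and −0.25 for Loxl2 on the same log2 scale. The libraries of WT-TAC lay wholly above those of WT-Sham for 5 of the 10 genes (Mmp2, Mmp14, Timp2, Timp3 and Lox), beside 52.5% of all genes, and wholly below for Loxl2, beside 7.09% of all genes. The median difference was 0.47 over the 10 genes and 0.39 over all genes, and 0.03 against −0.02 once libraries were scaled by their median of ratios. With that scaling Mmp2 (−0.09) and Timp3 (−0.06) turned below WT-Sham, and the other genes that had been higher, Mmp14 among them, stayed above it. The count rested on WT-TAC2: without it 5 of the 10 were called, Mmp14, Timp1, Timp2 and Lox as higher and Timp4 as lower, beside 44.0% of 13983 genes tested called higher and 6.51% lower, with WT-TAC1 as the only library of its group.

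**Figure D3:**
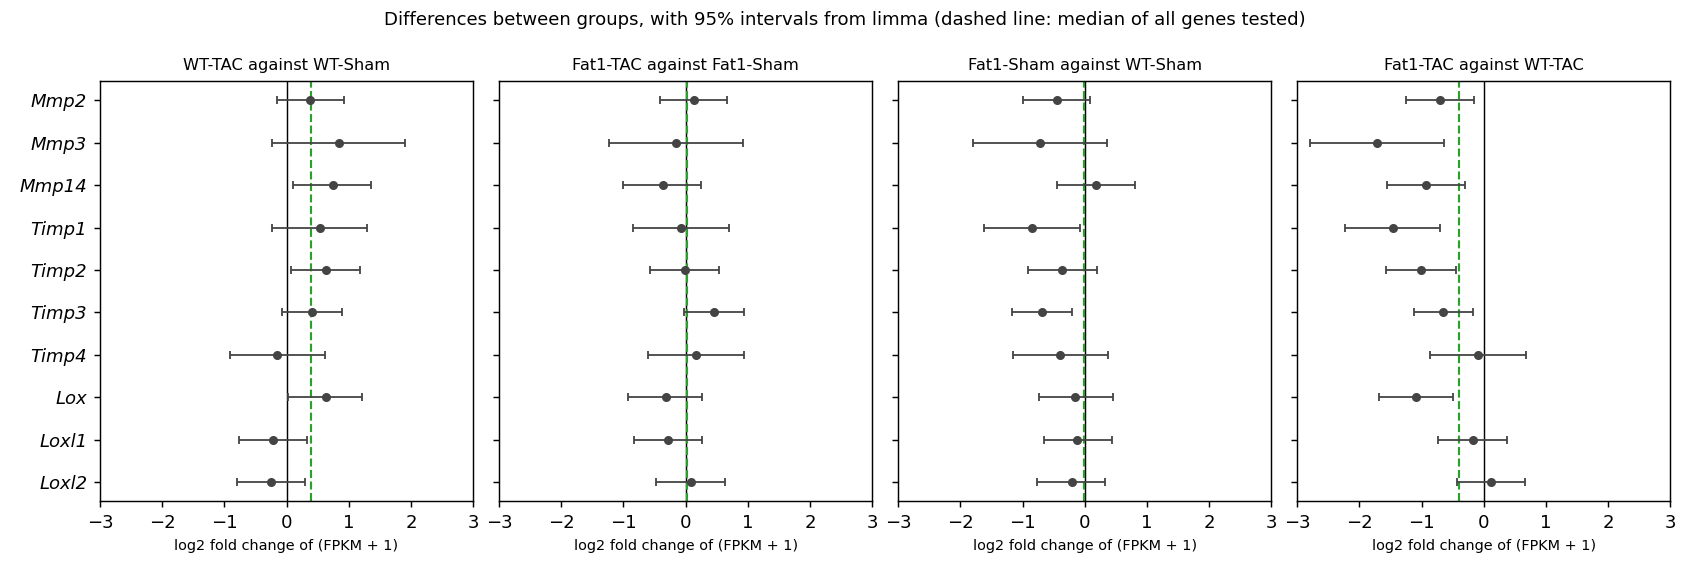
Log2 fold change of (FPKM + 1) of the 10 genes in 4 comparisons, with 95% intervals from limma (2 libraries per group). The dashed line marks the median of all 14442 genes tested, at 0.39, 0.02, −0.01 and −0.40 from left to right, and the solid line marks 0. Mmp3 and Timp1 lie farthest to the left in the comparison of Fat1-TAC with WT-TAC, at −1.71 and −1.46.

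In fat-1 hearts, none of the 10 was called between Fat1-TAC and Fat1-Sham, beside 0.00692% of all genes called higher and 0% called lower, and 0 of the 10 passed at an unadjusted p under 0.05, beside 1.33% of all genes higher and 0.533% lower. The median difference was −0.05 over the 10 genes and 0.02 over all genes, with 4 of the 10 higher and 6 lower. The libraries of Fat1-TAC lay wholly above those of Fat1-Sham for Timp3, beside 26.8% of all genes, and wholly below for 4, Mmp14, Timp1, Lox and Loxl1, beside 21.5%. For Timp1 that gap was between 2.03 and 1.93 FPKM, which is less than the counting error of either value.

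The interaction of genotype and surgery asks whether the TAC difference of fat-1 hearts departs from that of WT hearts. No member was called, beside 0.00692% of all genes called higher and 0.0623% called lower. At an unadjusted p under 0.05, 2 of the 10 were lower, beside 6.38% of all genes, and 0 higher, beside 0.609%. They were Mmp14 (−1.11, SE 0.38, adjusted p 0.495) and Lox (−0.95, SE 0.36, adjusted p 0.495), the same pair for which both WT-TAC libraries lay above both WT-Sham libraries and both Fat1-TAC libraries below both Fat1-Sham libraries, beside 7.93% of all genes, while 0 of the 10 showed the reverse, beside 1.26%. Without WT-TAC2, 4 of the 10 were called in the interaction, of which 3 were lower and 1 higher (Mmp14, Timp1, Timp4 and Lox), beside 39.3% of all genes lower and 6.43% higher. Averaged over both genotypes, none of the 10 was called between TAC and sham, beside 0% of all genes in either direction, and at an unadjusted p under 0.05 none passed with the fold, beside 7.67% of all genes higher and 0.464% lower. Nor did the 4 TAC libraries lie wholly above or below the 4 sham libraries for any of the 10, beside 7.82% of all genes above and 1.45% below.

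The transgene without overload was read from Fat1-Sham against WT-Sham, the comparison that holds no WT-TAC library. None of the 10 was called, beside 0% of all genes in each direction. At an unadjusted p under 0.05, 2 of the 10 were lower, Timp3 (−0.69, SE 0.20) and Timp1 (−0.85, SE 0.33), each with an adjusted p of 1, beside 0.692% of all genes, and 0 were higher, beside 0.201%. The median difference was −0.38 over the 10 genes and −0.01 over all genes (−0.35 and 0.02 after scaling by the median of ratios), and 9 of the 10 were lower, Mmp14 being the exception. The libraries of Fat1-Sham lay wholly below those of WT-Sham for Mmp2, Timp1, Timp3, Timp4 and Loxl2, 5 of 10 beside 16.5% of all genes, and wholly above for 0 of 10 beside 15.5%. The WT-Sham replicates themselves differed: 9 of the 10 genes were higher in WT-Sham2 than in WT-Sham1, and the median difference of the 10 was 0.45, against 0.15 over all genes. Leaving out 1 library in turn gave differences of −0.86 to −0.53 for Timp3 and −1.23 to −0.47 for Timp1.

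The transgene under overload was read from Fat1-TAC against WT-TAC, which shares the WT-TAC libraries with the comparison of WT-TAC with WT-Sham. None of the 10 was called, beside 0.0346% of all genes called higher and 1.39% called lower. At an unadjusted p under 0.05, 7 of the 10 were lower, beside 23.5% of all genes, and 0 were higher, beside 1.72%. The same 7 had all Fat1-TAC values below all WT-TAC values, beside 57.1% of all genes, and 0 of the 10 lay wholly above, beside 9.33%. They were Mmp3 (−1.71, SE 0.46, adjusted p 0.146), Timp1 (−1.46, SE 0.33, adjusted p 0.12), Lox (−1.09, SE 0.25, adjusted p 0.125), Timp2 (−1.01, SE 0.24, adjusted p 0.127), Mmp14 (−0.93, adjusted p 0.156), Mmp2 (−0.71, adjusted p 0.163) and Timp3 (−0.65, adjusted p 0.163). The differences of the other 3 had 95% intervals from −0.86 to 0.67 for Timp4, −0.73 to 0.37 for Loxl1 and −0.43 to 0.66 for Loxl2.

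The median difference between Fat1-TAC and WT-TAC was −0.82 over the 10 genes and −0.40 over all genes, and −0.37 against 0 after scaling by the median of ratios, under which Timp4 (0.33) and Loxl1 (0.26) turned above WT-TAC. Without WT-TAC2, 6 of the 10 were called lower (Mmp2, Mmp3, Mmp14, Timp1, Timp2 and Lox), beside 46.1% of all genes lower and 7.72% higher. In a comparison added after the values were seen, fat-1 against WT averaged over both surgeries, none of the 10 was called, beside 0.00692% of all genes higher and 0.0346% lower, and Timp1 (−1.16, adjusted p 0.213) was the 1 gene of the 10 whose 4 fat-1 libraries all lay below the 4 WT libraries, beside 4.56% of all genes, with 0 above, beside 0.983%. At an unadjusted p under 0.05, 5 of the 10 were lower in that average (Mmp3, Timp1, Timp2, Timp3 and Lox), beside 7.39% of all genes, and 0 higher, beside 0.305%. Without WT-TAC2, 4 of the 10 (Mmp3, Timp1, Timp2 and Lox) were called lower in that average, beside 24.0% of all genes. For any 1 gene, the smallest two-sided p that exact permutation of 2 and 2 libraries allows is 0.333.

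Since most of the genes are chiefly fibroblast products, the levels of all 10 were set beside 8 fibroblast markers (Pdgfra, Tcf21, Dcn, Lum, Dpt, Col1a1, Col1a2 and Col3a1). In whole tissue, fewer cells of a type and less RNA per cell cannot be told apart. The markers summed to 698 and 1109 FPKM in WT-Sham, 1128 and 1125 in WT-TAC, 677 and 616 in Fat1-Sham, and 630 and 645 in Fat1-TAC, so that WT-Sham2 and both WT-TAC libraries were high and the other 5 low, the same division as for Mmp2. Dcn (mean 346 FPKM) and the 3 collagens, matrix genes themselves, weighed most in the sum. Pdgfra and Tcf21 did not divide this way: in WT-TAC1 they were at 19.1 and 5.51 FPKM, against 19.2 and 5.59 in WT-Sham1. The other markers divided as the sum did.

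Per 1000 FPKM of fibroblast markers, Mmp2 was at 56.1 and 57.7 in WT-Sham, 56.9 and 59.4 in WT-TAC, 55.3 and 57.1 in Fat1-Sham, and 58.4 and 66.5 in Fat1-TAC. Its coefficient of variation over the 8 libraries was 6.03% on this scale, against 29.0% in FPKM. Timp2 went from 35.6% to 9.29%, Timp3 from 32.1% to 16.5%, Lox from 49.6% to 24.6% and Mmp14 from 38.3% to 23.7%. In all, 7 of the 10 genes varied less beside the fibroblast markers than in FPKM. The share of all genes that did so was not computed, so the count only describes these genes.

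Mmp3 and Timp1 had the highest coefficients of variation on this scale too. Mmp3 still had a coefficient of variation of 54.1%, and Timp1 of 39.7%, with 4.60 and 5.50 per 1000 FPKM of markers in WT-Sham, 7.87 and 4.73 in WT-TAC, 3.00 and 3.29 in Fat1-Sham, and 3.07 and 2.79 in Fat1-TAC. When libraries were scaled to these markers in the fit, a setting added after the values were seen, these were the 2 genes of the 10 called lower in Fat1-TAC than in WT-TAC, beside 17.3% of all genes called higher and 2.09% lower, while Mmp2 (0.10), Timp3 (0.16), Timp4 (0.66) and Loxl1 (0.59) turned above WT-TAC. Timp4, Loxl1 and Loxl2 varied more on this scale than in FPKM (30.6% against 25.1%, 23.7% against 18.0% and 30.0% against 14.9%).

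**Figure D4:**
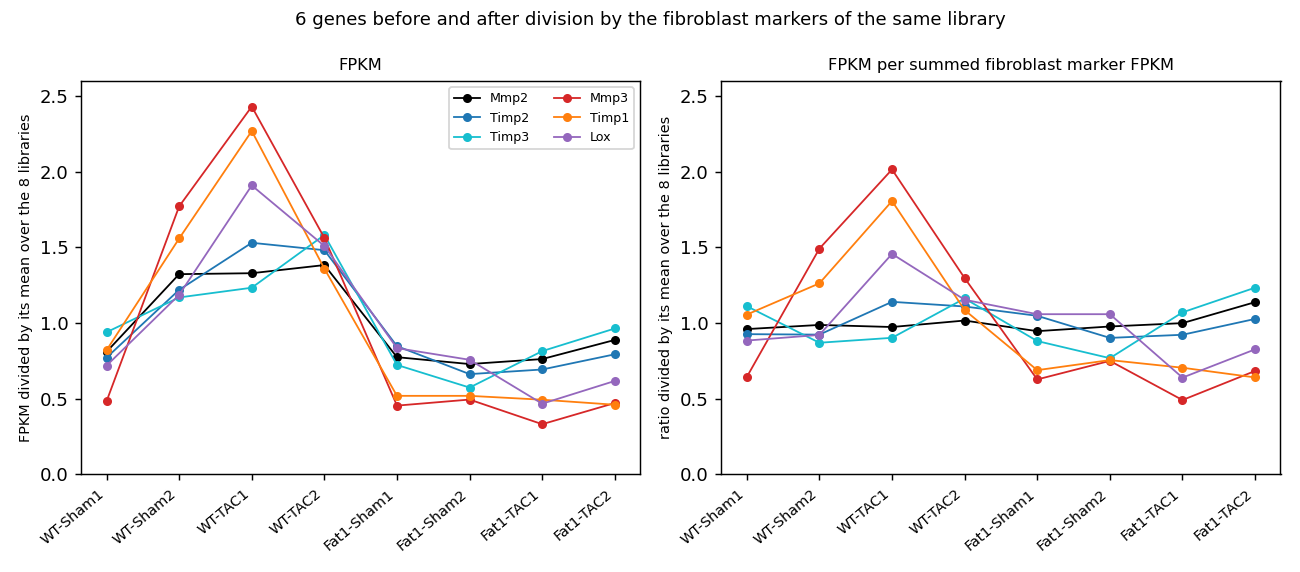
Levels of 6 genes in the 8 libraries, each divided by its own mean over the libraries, in FPKM (left) and per summed fibroblast marker FPKM of the same library (right). Both vertical axes start at 0 and are linear, and the lines join libraries only to guide the eye. On the right, Mmp2 lies near 1 throughout, while Mmp3 and Timp1 remain highest in WT-TAC1.

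Macrophage markers, 5 genes, summed to 270 and 322 FPKM in WT-Sham, 509 and 394 in WT-TAC, 241 and 255 in Fat1-Sham, and 247 and 230 in Fat1-TAC. Their sum was thus highest in both WT-TAC libraries, as were Mmp2, Mmp14, Timp2, Timp3 and Lox. Of the 5, 3 (Adgre1, Csf1r and Lyz2) had both WT-TAC libraries above all others, and Lyz2 made up most of the sum. Cd68 and C1qa were lower in WT-TAC2 (12.2 and 84.7 FPKM) than in WT-Sham2 (13.8 and 91.3 FPKM). Adipocyte markers ranged from 2.17 FPKM in Fat1-TAC1 to 379 FPKM in WT-TAC2 and cartilage markers from 6.79 to 42.2 FPKM, highest in WT-TAC2. The sum of activated fibroblast markers, 3 of 4 listed genes, was highest in WT-Sham2 (264 FPKM) and lowest in Fat1-TAC2 (64.2 FPKM). Acta2 made up most of it, at 212 and 41.4 FPKM in these libraries. Postn was highest in WT-TAC1 (49.7 FPKM) and Fap in WT-TAC2 (4.01 FPKM), and both were lowest in Fat1-Sham2 (12.8 and 1.42 FPKM). The part of these cell types in the levels of the 10 genes was not tested.

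Other genes of matrix processing were followed as a list of 57, of which 55 were in the table and 45 passed the filter. Of the 45, Mmp12 and Adam8 passed only through WT-TAC, since both were under 1 FPKM in the other 6 libraries, so their calls are a description and support nothing about the list. Of the other 43, 0 were called between WT-TAC and WT-Sham, beside 0.921% of all genes called higher and 0.0138% lower. In that comparison the fit gave higher levels of Mmp12, the macrophage metalloelastase (0.182 and 0.706 FPKM in WT-Sham, 6.69 and 3.71 in WT-TAC, log2 fold change 2.08, SE 0.31, adjusted p 0.0587), and of Adam8, a membrane protease of leukocytes (0.546 and 0.615, then 8.51 and 5.76 FPKM, 2.34, SE 0.24, adjusted p 0.0198). In Fat1-TAC, Mmp12 was at 0.304 and 0.398 and Adam8 at 0.388 and 0.346 FPKM. Without a filter the adjusted p was 0.0557 for Mmp12 and 0.0184 for Adam8. Mmp12 was called in 6 of the 17 alternatives that tested it (adjusted p 0.0398 to 0.45) and not under the median of ratios (1.76, adjusted p 0.121), whereas Adam8 was called in 14 of 17, and lost its call under limma-voom on recovered fragments (adjusted p 0.12) and without either WT-Sham library (adjusted p 0.285 and 0.228). Neither reached the filter when 1 WT-TAC library was left out.

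Between Fat1-TAC and WT-TAC, 1 of the other 43 was called lower in Fat1-TAC and 0 higher, beside 1.39% of all genes lower and 0.0346% higher. It was Fn1, the matrix protein fibronectin (−1.69, SE 0.34, adjusted p 0.0997). Fn1 was at 19.2 and 35.8 FPKM in WT-Sham, 63.2 and 66.8 in WT-TAC, 18.0 and 17.2 in Fat1-Sham, and 14.7 and 25.8 in Fat1-TAC, again with WT-Sham2 as the higher sham library. The call of Fn1 lay at the threshold and held in 2 of 20 alternatives, those scaled to fibroblast markers (−0.89, adjusted p 0.0822) and without WT-TAC2 (adjusted p 0.0111). It was lost in the other 18, among them the median of ratios (−1.23, adjusted p 0.241), no trend (adjusted p 0.105) and the replicate block (adjusted p 0.13). Mmp12 (−2.16, SE 0.31, adjusted p 0.0488) and Adam8 (−2.55, SE 0.24, adjusted p 0.013) were lower as well, again through the group that admitted them, and were called in 5 and 15 of 17 alternatives. Without WT-TAC2 the list gave 17 calls, 14 lower and 3 higher, of 43 genes tested, beside 46.1% of all genes lower and 7.72% higher. No gene of the list was called in the comparison of Fat1-TAC with Fat1-Sham, in that of Fat1-Sham with WT-Sham, in the average over genotypes or in the interaction. Mmp12, Adam8 and Fn1 were highest in the WT-TAC libraries, which also had the highest sums of macrophage and airway markers.

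By mean level, the leading genes of each class in the list were Mmp15 (46.0 FPKM) and Mmp23 (11.8) among other metalloproteinases, Adam10 (30.3) and Adam15 (26.8) among ADAM proteases, and Adamts1 (19.9) and Adamts10 (16.0) among ADAMTS proteases. Of the plasminogen system, the inhibitor Serpine2 was at 20.4. The processing genes were led by Bsg (1010), the inducer of metalloproteinases, and Pcolce (61.4), which enhances procollagen cleavage, and the crosslinking genes by Tgm2 (109) and Plod1 (59.5). Mmp15, a membrane-type enzyme, was thus at a mean level close to that of Mmp2 and above that of Mmp14. Single libraries differed: in WT-TAC1 it was at 29.5 FPKM, below Mmp2 (64.2) and Mmp14 (30.0). In Fat1-Sham1 it was at 61.9 FPKM, above Mmp2 (37.4).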

How the data were processed

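RNA of mouse hearts was sequenced in 8 libraries, 2 per group. The authors deposited 1 FPKM value per gene and library for 25929 genes. Per the labels, the processing notes name HISAT2 and mm10 (GRCm38); the counting program, versions and annotation are not given in the sources used here. Fragments were recovered from the FPKM values as whole numbers at 1 length per gene (tolerance 0.01 fragments) for 25928 genes, 11469 of them at an annotated length. Intervals and floors from fragments cover counting error only.

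Values were transformed as log2(FPKM + 1), which understates changes of low genes, and tested with limma (version 3.58.1, R 4.3.3; lmFit on 4 group means, eBayes with trend) over the 14442 genes that reached 1 FPKM in 2 or more libraries. The design allowed for counts, and FPKM were found. Coordinates are from GENCODE (GRCm38) and promoters from RefSeq (GRCm38.p6). The labels call the samples independent, and p-values measure only the spread between them. The fit was tested on simulated data in which every library had the same variability. The median absolute difference between replicates over all genes tested was 0.5 in WT-TAC and 0.13 in Fat1-Sham (log2). The simulation does not cover such unequal groups. Named genes were the 10 members, the list genes called in any comparison and the 2 highest per class, of which 1 is not reported here. The members and lists were chosen with earlier results of these data known. Alternatives were other scalings, filters and pseudocounts (0.1 in place of 1), only the groups compared, a replicate block, no trend, limma-voom on fragments and leaving out each library. Same-numbered samples did not deviate together (correlations −0.135 to 0.024), so numbers were not taken as pairs.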

Additional observations from a re-analysis of the deposited data

Results flagged for a closer look

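Mmp14 and Lox differed between the genotypes in the direction of their TAC difference. For each, both WT-TAC libraries lay above both WT-Sham libraries and both Fat1-TAC libraries below both Fat1-Sham libraries, beside 7.93% of all genes. The means of Mmp3, Timp1 and Timp2 also rose with TAC in WT hearts and fell in fat-1 hearts, but with some overlap of libraries. Mmp3 overlapped in both genotypes, Timp1 in WT hearts only and Timp2 in fat-1 hearts only. Those of Timp4 and Loxl2 went the reverse way. The difference between the genotypes was tested as the interaction in limma and was −1.11 for Mmp14 and −0.95 for Lox (log2), neither passing with an adjusted p of 0.495. Over the alternatives the interaction of Mmp14 lay between −1.49 and −0.66 (adjusted p 0.003 to 0.918) and that of Lox between −1.40 and −0.50 (adjusted p 0.047 to 0.918), the lowest adjusted p being those without WT-TAC2.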

How the results depend on the processing

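Of 137 recomputed counts of members called, 130 stayed at 0. Fold changes of members were selected for this count. They were all those of WT-TAC against WT-Sham and of Fat1-TAC against WT-TAC, and elsewhere those with an unadjusted p under 0.05. Of 598 recomputed values of the selected fold changes, 23 reversed and 22 newly passed. The weaker differences of the other comparisons are not in that count. Leaving out each library gave 0 to 5 called for WT-TAC against WT-Sham, 0 to 6 for Fat1-TAC against WT-TAC, 0 to 4 for the interaction and 0 to 4 for fat-1 against WT, and 0 for the other 3 comparisons. Every count above 0 in these ranges came without WT-TAC2, when WT-TAC1 alone stood for its group and was assumed to vary like the other groups, and the cause was not tested. In Fat1-TAC against WT-TAC, 1 member (Lox) was called without a trend and 2 (Mmp3 and Timp1) with libraries scaled to their fibroblast markers, a scaling that also called 2 (Mmp3 and Timp1) in fat-1 against WT. With the replicate block, 0 members were called in each comparison, so it changed no call of a member; the samples share only a number.

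Of the other matrix genes, 2 were called between WT-TAC and WT-Sham and 3 between Fat1-TAC and WT-TAC, of which Mmp12 and Adam8 passed the filter only through WT-TAC. These counts were 1 and 1 under the median of ratios, quantile normalization, a pseudocount of 0.1 and the replicate block, 0 and 0 with a filter at a mean of 5 FPKM (which removed Mmp12 and Adam8), 1 and 0 with only the groups compared, 0 and 1 under limma-voom on fragments, and 1 in the first under limma-voom without rescaling. Scaling to fibroblast markers gave 11 in the second and 9 in fat-1 against WT. In Fat1-TAC against Fat1-Sham, 2 were called with only the groups compared, and 1 (Adam8) was called without a trend or without a filter in the TAC average and in fat-1 against WT, and without a trend in the interaction. Leaving out each library gave 0 to 10, 0 to 17, 0 to 8, 0 to 11 and 0 to 10 for WT-TAC against WT-Sham, Fat1-TAC against WT-TAC, the TAC average, the interaction and fat-1 against WT, the highest always without WT-TAC2.

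Some of the selected fold changes (log2) reversed. Under the median of ratios they were Mmp2 (−0.09) and Timp3 (−0.06) in WT-TAC against WT-Sham and Timp4 (0.33) and Loxl1 (0.26) in Fat1-TAC against WT-TAC. Under quantile normalization they were Timp1 (−0.03) in the first and Timp4 (0.43) and Loxl1 (0.32) in the second, and under limma-voom on fragments Mmp2 (−0.01) in the first and Timp4 (0.33) and Loxl1 (0.22) in the second. Scaled to fibroblast markers, Mmp2 (0.10), Timp3 (0.16), Timp4 (0.66) and Loxl1 (0.59) reversed in Fat1-TAC against WT-TAC and Mmp2 (0.04) in fat-1 against WT, and without mitochondrially encoded genes in the depth Timp4 (0.05) in Fat1-TAC against WT-TAC. Leaving out a library gave −0.60 to 0.31 for Timp4 and −0.46 to 0.03 for Loxl1 with TAC in WT hearts, and in Fat1-TAC against WT-TAC −0.55 to 0.36 for Timp4, −0.43 to 0.07 for Loxl1 and −0.08 to 0.31 for Loxl2. The averaged genotype comparison, the fibroblast scaling, limma-voom without rescaling and the alternatives for the other matrix genes were chosen after the values were seen. Depth did not limit detection of any member, whereas 2 libraries per group limit every test.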
